A study of Gallus gallus with 16 samples.

Results

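Steroid hormones act on gonads through nuclear receptors, and gonads in turn set how much active hormone reaches those receptors by reducing, oxidising or sulfating it. The genes described here are receptors for progesterone (PGR), glucocorticoids (NR3C1) and mineralocorticoids (NR3C2), the steroid 5-alpha-reductases (SRD5A1, SRD5A2 and SRD5A3), the 5-beta-reductase AKR1D1 and the oestrogen sulfotransferase SULT1E1. They were taken by symbol from the deposited gene table, where the 8 symbols stood on 9 of 14074 genes, because SRD5A3 was written on 2 Ensembl identifiers. Their levels were measured by SuperSAGE in whole chicken (Gallus gallus) gonads at day 19 of incubation, shortly before hatching. This method sequences a short tag beside an NlaIII site near the 3' end of each transcript. A tag count thus needs no correction for transcript length. How fully the tags of each gene were captured was not tested, so different genes are compared as tag counts only.

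The study had 16 libraries, each made from RNA of 10 individuals: the left gonad and the right gonad were sequenced apart in either sex and for every substance. Female and male embryos received no substance, sesame oil, methyltestosterone at 30 pg per g body weight (a synthetic androgen), or tributyltin at 10 pg tin per g body weight (an organotin and a known ligand of RXR and PPAR gamma). The vehicle of methyltestosterone and tributyltin was not given in the sources used here. The table held 8 value columns, 1 per sex and substance, with left and right already joined, so each combination was a single value and an effect of a substance within 1 sex could not be tested over replicates. Values are reads of a tag scaled to a common library size (RPM), and intervals on single values and on ratios of 2 columns are exact 95% intervals of the tags, which cover counting error only.

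The oil and tributyltin columns held 314810 to 508095 tags and the untreated and methyltestosterone columns 1953798 to 6669049, so that 1 tag was worth 1.97 to 3.18 RPM in the former and 0.150 to 0.512 RPM in the latter. These sets of columns also differed widely in profile, and substance and set cannot be told apart in any comparison between them. Summed over the testis and Sertoli markers (8 measured), males had 7333 to 12161 RPM and females 1214 to 7081. AMH made up most of this sum, at 6912 to 10834 RPM in males and 977 to 6774 in females. The highest female sum was that after methyltestosterone. From untreated to methyltestosterone females, AMH went from 1486 to 6774 RPM, DMRT1 from 9.56 to 31.1 and CLDN11 from 2.61 to 9.19. NR5A1 went from 216 to 250 and GATA4 from 1.303 to 1.585. SOX9 went from 30.8 to 13.6 and INHBB from 2.17 to 0.951, and CYP26B1 was at 0 in both. In methyltestosterone males SOX9 was at 322 RPM, DMRT1 at 49.0 and CLDN11 at 411. Summed over the ovary and granulosa markers (7 measured), females had 239 to 342 RPM and males 32.5 to 98.4, which follows the labels of sex. Markers of neighbouring organs were present as well. Adrenal markers (6 measured, all of catecholamine-making chromaffin cells) summed to 407 to 1182 RPM in females and 51.2 to 382 in males. Mesonephros and kidney markers (9 measured) summed to 378 to 1164 in females and 24.4 to 136 in males. Gut epithelium markers (5 measured) summed to 1243 RPM in untreated females and to 0 to 25.4 in the other columns. Untreated females are the reference of the female oil and methyltestosterone ratios, and the part of gut RNA in those ratios was not tested. In such bulk RNA, fewer cells of a type and less RNA per cell cannot be told apart.

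**Figure D1:**
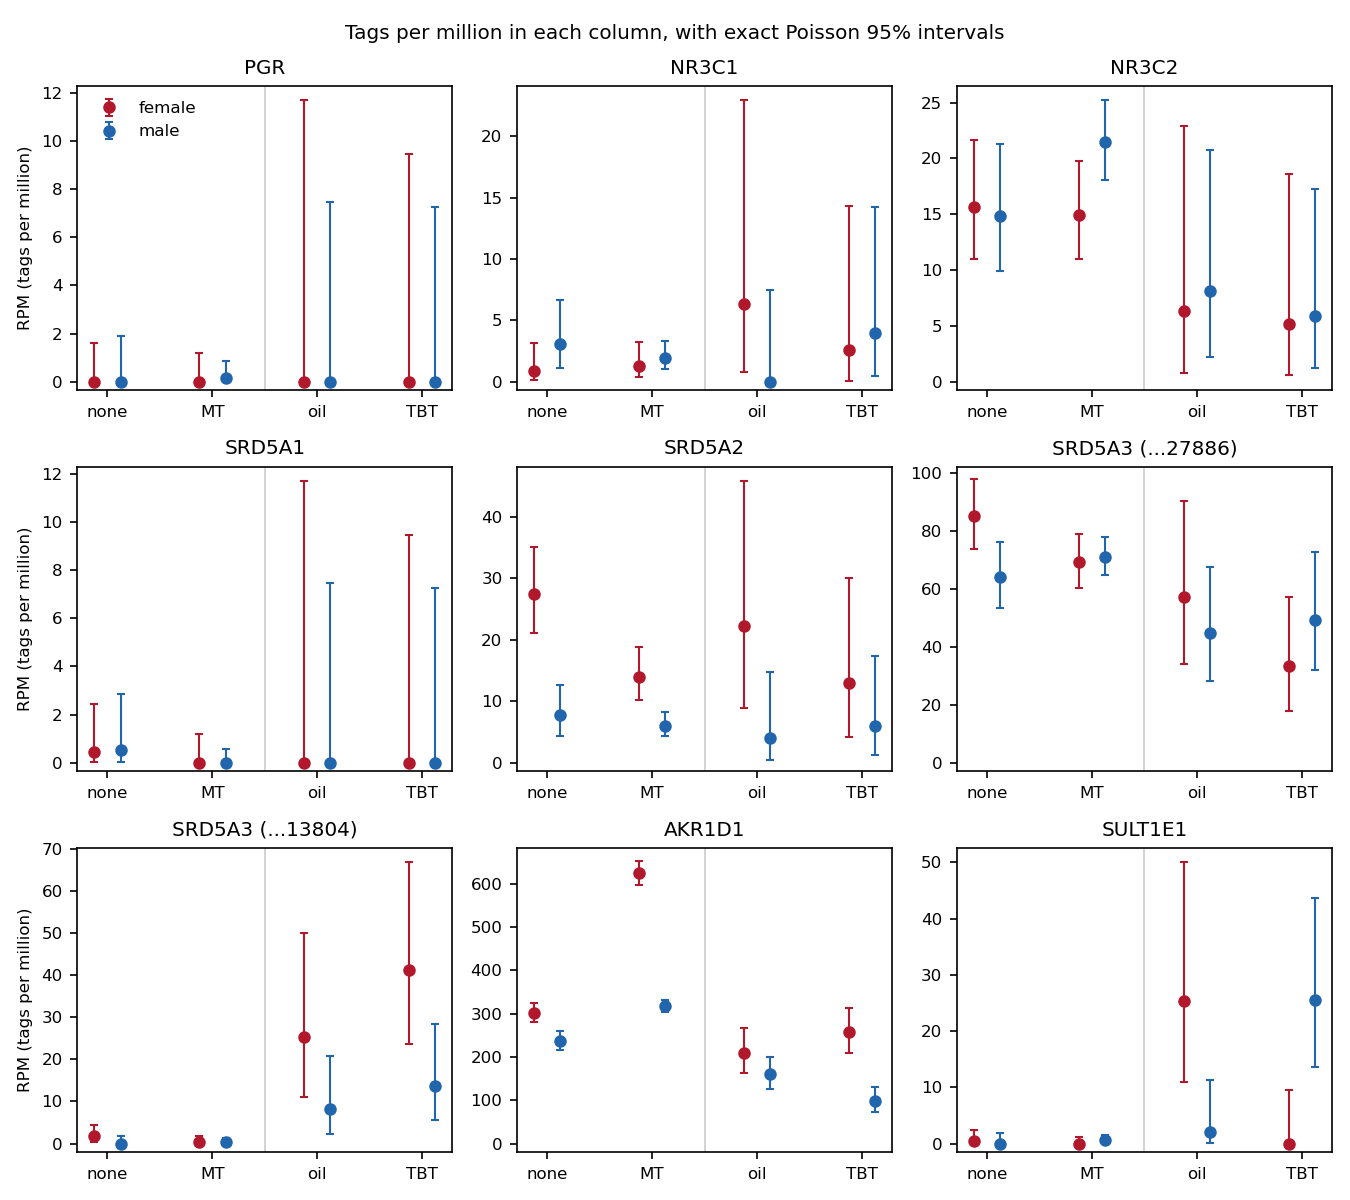
RPM (vertical axis, linear) of the 9 genes in each column, by substance (none, methyltestosterone MT, oil, tributyltin TBT) and sex (red female, blue male), with exact Poisson 95% intervals. AKR1D1 reached 625 RPM in methyltestosterone females, SRD5A2 was higher in each female column than in any male column, and PGR and SRD5A1 stayed at or near 0.

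AKR1D1 had the most tags of the 8 genes, followed by SRD5A3 and then NR3C2 (266 tags), while NR3C1 had 30 tags and PGR 1. An additive model of sex plus substance was fitted in limma to log2(RPM + 1) of the 9280 genes that reached 1 RPM in 4 or more columns, and a gene was called at a Benjamini-Hochberg adjusted p under 0.05. Of the 9 genes 6 passed this filter on low values (NR3C1, NR3C2, SRD5A2, both SRD5A3 genes and AKR1D1), while PGR, SRD5A1 and SULT1E1 did not and are given as values. In this model a substance response that differs between the sexes counts as spread. None of the 6 was called for the sex difference, where 5.96% of all tested genes were (3.67% higher and 2.28% lower in females). None was called for methyltestosterone against untreated (0.345% of all genes called, 0.226% higher and 0.119% lower) or for tributyltin against oil (0% called). For oil against untreated 1 of the 6 was called, against 6.36% of all genes (2.77% higher and 3.59% lower). The called gene passed the filter through the oil and tributyltin columns, in which it was high.

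The receptors were weakly represented among the tags. PGR (ENSGALG00000017195, chromosome 1), the receptor through which progesterone acts on the oviduct and ovary, had 1 tag among the 15783571 tags of all columns, in methyltestosterone males (0.150 RPM). It had no tag in the other 7 columns, where the exact interval of 0 tags reached 1.17 to 11.7 RPM in females and 1.89 to 7.49 RPM in untreated, oil and tributyltin males. A low level of PGR was thus not detectable at this depth, least of all in the oil and tributyltin columns.

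NR3C1 (ENSGALG00000007394, chromosome 13), the glucocorticoid receptor, had 30 tags in all. It was at 3.07 RPM in untreated males, 0 in oil males, 3.94 in tributyltin males and 1.95 in methyltestosterone males. Females had 0.869 RPM untreated, 6.35 after oil, 2.57 after tributyltin and 1.27 after methyltestosterone. The sexes overlapped fully, and the values of the oil and tributyltin columns rested on 0 to 2 tags each. The fitted sex difference of log2 0.23 had a 95% interval from -1.34 to 1.79 (limma adjusted p = 0.905), which spans large changes in either direction.

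NR3C2 (ENSGALG00000010035, chromosome 4), the mineralocorticoid receptor, which binds aldosterone and also glucocorticoids, had the most tags of the 3 receptors. Males had 14.8 RPM untreated, 8.12 after oil, 5.90 after tributyltin and 21.4 after methyltestosterone. Females had 15.6 untreated, 6.35 after oil, 5.14 after tributyltin and 14.9 after methyltestosterone. The 4 oil and tributyltin columns (2 to 4 tags each) all lay below the 4 others, a pattern shared by 12.5% of all tested genes. Every column's counting interval overlapped that of its neighbour in the order of levels, and the interval of oil over untreated included 1 in each sex (0.406, 0.0474 to 1.58, in females and 0.547, 0.140 to 1.56, in males).

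Between the sexes NR3C2 was nearly level in untreated gonads, with a female over male ratio of 1.05 (0.628 to 1.78). After methyltestosterone the ratio was 0.695 (0.489 to 0.972), the female value being the lower one. The fitted sex difference over all substances was log2 -0.23 (SE 0.47, 95% interval -1.26 to 0.81, limma adjusted p = 0.851). The log2 difference of methyltestosterone against untreated was 0.22 (SE 0.66, limma adjusted p = 0.996).

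The nuclear receptors of a wider family list had few tags too. Of 11 measured genes of this list (the receptors above included) 6 were tested, and none was called in any of the 4 comparisons. PGRMC1 (ENSGALG00000020260), a membrane-associated haem protein first described as a progesterone-binding component, was at 346 to 791 RPM over the 8 columns with a median of 575. ESRRG (ENSGALG00000009645), an orphan oestrogen-related receptor, was at 8.12 to 31.8 RPM. ESR2 (ENSGALG00000011801), the beta form of the oestrogen receptor, was at 0.869 to 6.35 RPM, and ESR1, the alpha form, at 0 to 3.18. PGRMC2 was listed at 0 in every column. These 5 were chosen after their values were seen. Each nuclear receptor reported from this list was thus at or below 31.8 RPM.

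Reduction of the steroid A ring is the next step that decides androgen strength. The 5-alpha-reductases turn testosterone into the stronger androgen dihydrotestosterone, whereas the 5-beta-reductase AKR1D1 turns it into an inactive product, a route that birds use heavily. SRD5A1 (ENSGALG00000013063, chromosome 2), the type 1 enzyme, had 1 tag in untreated males (0.512 RPM) and 1 in untreated females (0.434 RPM) and none elsewhere. In methyltestosterone gonads the exact interval of 0 tags reaches 0.553 RPM in males and 1.17 RPM in females.

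SRD5A2 (ENSGALG00000010625, chromosome 3), the type 2 enzyme, which in mammals makes dihydrotestosterone in the male genital tract, had higher values in female than in male gonads here. Females had 27.4 RPM untreated, 22.2 after oil, 12.9 after tributyltin and 13.9 after methyltestosterone. Males had 7.68 untreated, 4.06 after oil, 5.90 after tributyltin and 5.998 after methyltestosterone. All 4 female columns lay above all 4 male columns, which 5.27% of all tested genes also showed, while the reverse held for 3.53%. The fitted log2 difference of females to males was 1.502 (SE 0.49, 95% interval 0.43 to 2.58), with an unadjusted p of 0.0109 in limma, and it did not pass over all genes (limma adjusted p = 0.113).

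The female over male ratio of SRD5A2 was 3.57 (2.01 to 6.74) in untreated gonads and 2.33 (1.48 to 3.66) after methyltestosterone. It was 5.48 (1.04 to 54.0) after oil, on 7 and 2 tags, and 2.18 (0.424 to 14.0) after tributyltin, on 5 and 3 tags. Within the 4 deep columns (untreated and methyltestosterone) alone, the sex difference of SRD5A2 was called (log2 1.40, limma adjusted p = 0.0121), as were 10.9% of all tested genes in that fit. This was 1 of 16 alternative settings, and in the other 15 it was not called, with an adjusted p of up to 0.617. The fit to the 4 deep columns had fewer residual degrees of freedom than the main fit, so it leaned more on the spread shared over genes. The adrenal, kidney and liver marker sums were also higher in females than in males in every substance, and their part in the sex difference of SRD5A2 was not tested. Within females the value after methyltestosterone was 0.510 times the untreated one (0.339 to 0.761), and within males 0.781 times (0.422 to 1.52). In the authors' deposited table the p-value for SRD5A2 between untreated and methyltestosterone females was 0.000471 and that between the male columns 0.414. Over both sexes the fitted difference was log2 -0.62 (SE 0.69, 95% interval -2.14 to 0.90, limma adjusted p = 0.924).

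**Figure D2:**
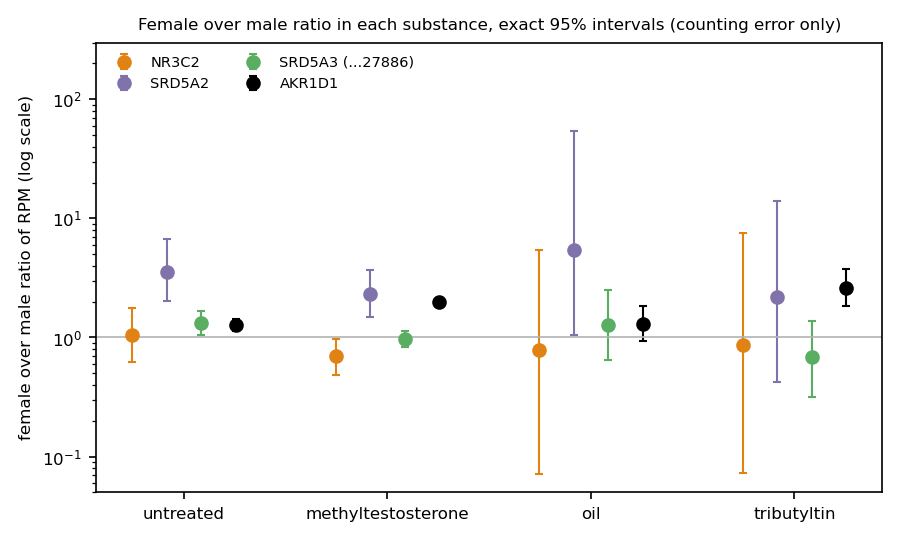
Female over male ratio of RPM (vertical axis, log scale) in each substance for NR3C2, SRD5A2, the main SRD5A3 gene (ENSGALG00000027886) and AKR1D1, with exact 95% intervals for counting error. The ratios of SRD5A2 (2.18 to 5.48) and AKR1D1 (1.28 to 2.61) were above 1 in all 4 substances, while those of NR3C2 and SRD5A3 lay on both sides of 1.

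SRD5A3, named as a steroid reductase but best known from humans and mice for reducing polyprenol to dolichol, the lipid that carries sugars for N-glycosylation, stood on 2 genes of chromosome 4. The main one, ENSGALG00000027886, was at 85.2 RPM in untreated, 57.2 in oil, 33.4 in tributyltin and 69.1 in methyltestosterone females. Males had 64.0, 44.7, 49.2 and 71.1 RPM in the same order. All 4 oil and tributyltin columns were below the 4 others (12.5% of all tested genes), and the sexes overlapped. Its fitted sex difference was log2 0.04 (SE 0.26, 95% interval -0.54 to 0.62, limma adjusted p = 0.952).

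For oil against untreated this gene had a log2 difference of -0.54 (SE 0.37, 95% interval -1.36 to 0.28, limma adjusted p = 0.389). After methyltestosterone the value was 0.812 times the untreated one in females (0.666 to 0.989) and 1.11 times in males (0.910 to 1.36). For tributyltin against oil the fitted difference was log2 -0.31 (95% interval -1.13 to 0.51, limma adjusted p = 0.773). Neighbours in the order of its 8 levels overlapped in their counting intervals throughout.

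The second gene, ENSGALG00000013804, had the opposite pattern over the columns. It was at 1.74 RPM in untreated and 0.317 in methyltestosterone females, but at 25.4 in oil and 41.2 in tributyltin females. Males had 0 and 0.450 RPM untreated and after methyltestosterone, and 8.12 and 13.8 after oil and tributyltin. The 4 oil and tributyltin columns thus lay above all others, as they did for 7.03% of tested genes. This was the 1 called gene among the 6, with a log2 difference of oil to untreated of 3.23 (SE 0.81, 95% interval 1.44 to 5.02, limma adjusted p = 0.0420), higher after oil in both sexes. It passed the filter on low values through the 4 oil and tributyltin columns, where a single tag exceeds 1 RPM. Elsewhere only untreated females reached 1 RPM. The filter thus favours genes that are high in those columns, and neither the call nor the 7.03% is free of this selection.

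Within females oil was 14.6 times untreated (3.92 to 66.4), on 8 and 4 tags, and within males there were 4 tags after oil and none untreated, with a lower limit of 2.62 for the ratio. The call did not hold without either untreated column (limma adjusted p = 0.312 without the male and 0.347 without the female one). It was lost in 9 of 14 alternative settings, edgeR and DESeq2 included. Both tools ran on 7 columns, without untreated females, where limma had lost the call as well, so a part of the tool itself was not tested. Tributyltin against oil was not called for it (log2 0.69, 95% interval -1.10 to 2.47, limma adjusted p = 0.770). Its values were higher in females within the oil and tributyltin columns, with a ratio of 3.13 (0.838 to 14.2) and 2.99 (1.16 to 8.59).

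Added together, the SRD5A3 genes ranged from 52.8 to 86.9 RPM. In females their sum was 86.9 RPM untreated, 82.6 after oil, 74.6 after tributyltin and 69.4 after methyltestosterone, and in males it was 64.0, 52.8, 63.0 and 71.5 RPM. For the sum, oil over untreated was 0.951 (0.606 to 1.43) in females and 0.825 (0.519 to 1.27) in males, intervals that span changes in either direction. Methyltestosterone over untreated was 0.799 (0.657 to 0.973) in females and 1.12 (0.916 to 1.37) in males. The share of tags that each gene received therefore differed between the sets of columns, while the oil and untreated sums differed by less than their counting error. Among untreated gonads the female sum was 1.36 times the male one (1.08 to 1.71). How the authors assigned tags that match both genes is not given in the sources used here, so the split between them is uncertain.

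**Figure D3:**
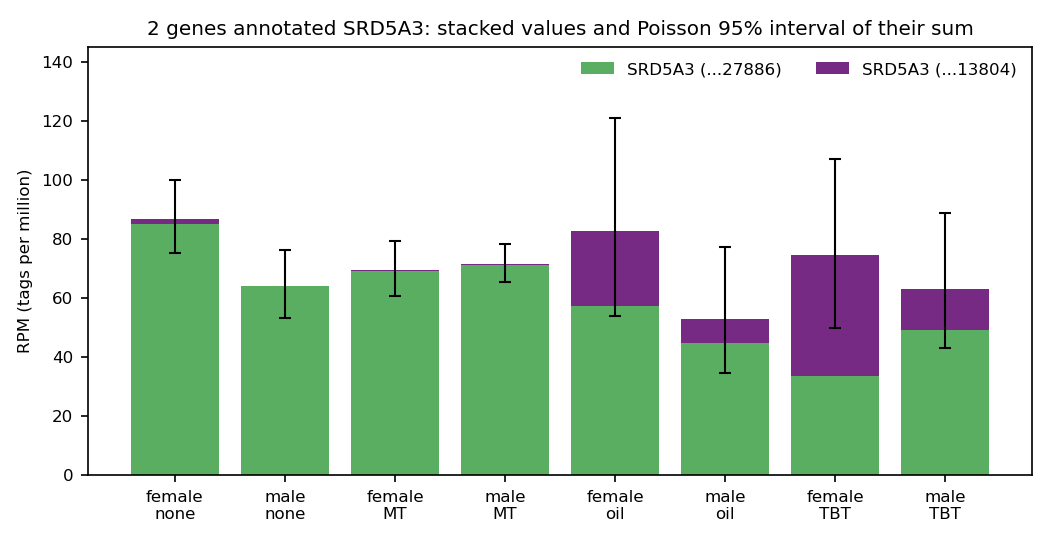
RPM of the 2 genes annotated SRD5A3, stacked for each sex and substance (none, methyltestosterone MT, oil, tributyltin TBT), with the Poisson 95% interval of their sum. ENSGALG00000013804 (purple) contributed 8.12 to 41.2 RPM in oil and tributyltin columns and at most 1.74 RPM elsewhere, and the sum stayed between 52.8 and 86.9 RPM.

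AKR1D1 (ENSGALG00000012834, chromosome 1), the 5-beta-reductase that inactivates testosterone and in liver also acts in bile acid synthesis, had the most tags of the 8 genes, 5534 in all. Females had 302 RPM untreated, 210 after oil, 257 after tributyltin and 625 after methyltestosterone. Males had 236 untreated, 160 after oil, 98.4 after tributyltin and 317 after methyltestosterone. In each substance the female value was the higher one, which held for 14.5% of all tested genes, although the ranges of the sexes overlapped. In both sexes the highest value was that after methyltestosterone, as for 17.4% of tested genes.

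The sex difference of AKR1D1 was log2 0.77 (SE 0.21, 95% interval 0.30 to 1.24), and it did not pass (limma adjusted p = 0.0638). It was positive in all 17 alternative settings and passed in 2 of them, with a pseudocount of 5 (limma adjusted p = 0.0487) and when genes under a mean of 20 RPM were left out (limma adjusted p = 0.0389). In the other 15 it did not pass, with an adjusted p of up to 0.493. The female over male ratio was 1.28 (1.13 to 1.44) untreated, 1.31 (0.928 to 1.84) after oil, 2.61 (1.84 to 3.75) after tributyltin and 1.97 (1.86 to 2.10) after methyltestosterone. Whether the ratio itself differed between substances was not tested.

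Between the sexes, the liver, adrenal and kidney marker sums ran in the same direction as AKR1D1. For methyltestosterone against untreated, where AKR1D1 had a log2 difference of 0.73, the marker medians were 0.60 for liver, -1.59 for adrenal and -0.80 for kidney. They were 1.03 for ovary and granulosa, 0.93 for Mullerian duct, 0.91 for red blood cells and 0.59 for testis and Sertoli. Leukocytes were at 0.10, germ cells at -0.08, smooth muscle at -1.37 and gut epithelium at -2.34. By sex the ovary, Mullerian duct, red blood cell, leukocyte, smooth muscle and gut medians were also above 0, and those of testis and germ cells below. Summed over the liver list (13 measured), females had 2466 to 4072 RPM and males 785 to 1289. HPX (317 to 2012 RPM) and APOA1 (392 to 2083 RPM) made up most of this sum. By sex 3 of the 10 tested genes of the list were called higher in females and 0 lower, against 3.67% of all tested genes called higher. These were HPX, APOA1 and FGB (log2 1.91, 1.38 and 2.32, limma adjusted p = 0.00139, 0.00667 and 0.0195). Of the same list, AHSG was at 0 in all columns and TTR at 0 to 1.97 RPM. Albumin (ALB) was at 0 to 2.17 RPM except in oil females, at 22.2. The part of RNA from any of these organs or cells in the differences of AKR1D1 was not tested.

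After methyltestosterone AKR1D1 was 2.07 times the untreated value in females (1.90 to 2.26) and 1.34 times in males (1.21 to 1.48). In the authors' deposited table the p-values of these pairs were 5.13e-64 for females and 1.20e-08 for males, each between single pools. Over both sexes the fitted log2 difference was 0.73 (SE 0.30, 95% interval 0.07 to 1.40), with an unadjusted p of 0.0337 and a limma adjusted p of 0.473. It was positive in all 15 alternative settings, where it ranged from 0.38 to 1.02, and passed in none of them.

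Tributyltin against oil ran in opposite directions for AKR1D1. The ratio was 1.23 in females (0.890 to 1.70) and 0.614 in males (0.422 to 0.885), and the fitted difference was log2 -0.20 (95% interval -0.87 to 0.46, limma adjusted p = 0.827). Oil was below untreated in both sexes, at 0.695 times (0.532 to 0.896) in females and 0.678 times (0.527 to 0.863) in males. The fitted difference was log2 -0.54 (SE 0.30, 95% interval -1.21 to 0.13, limma adjusted p = 0.289), against a median of -0.28 over all tested genes. In the order of levels, methyltestosterone females stood apart from the next column by counting error, and each later neighbour overlapped with the next.

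**Figure D4:**
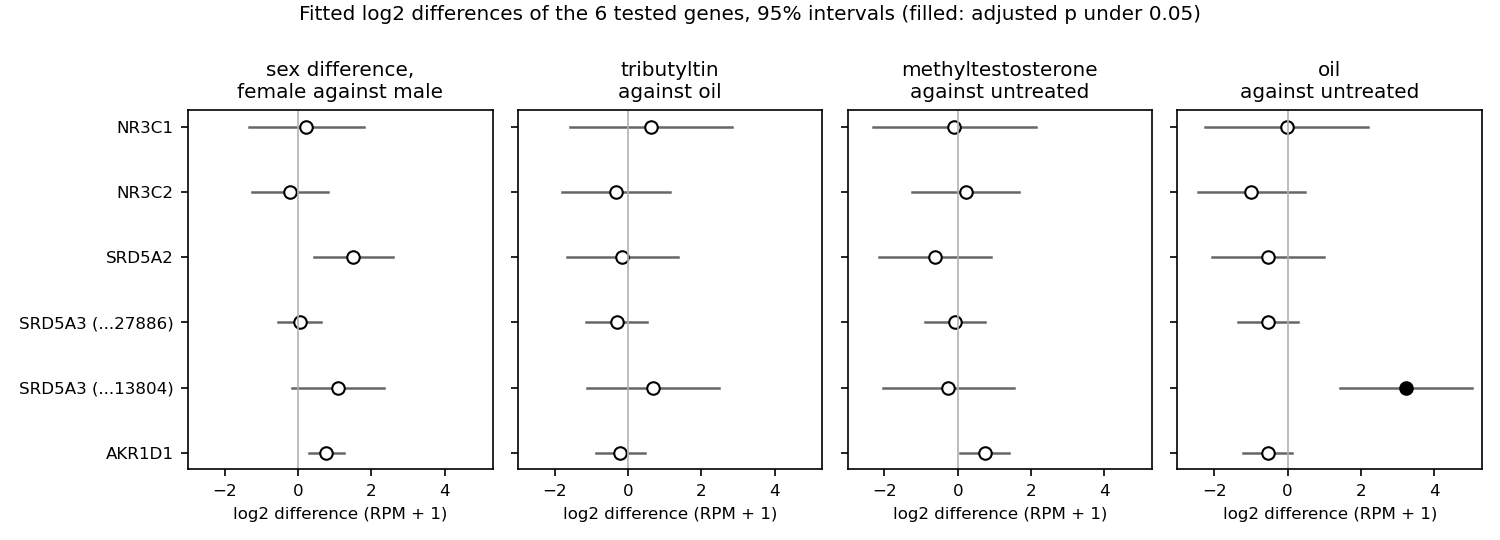
Fitted log2 differences on the log2(RPM + 1) scale with 95% intervals (horizontal axis) for the 6 tested genes in the 4 comparisons; a filled point had a limma adjusted p under 0.05. The second SRD5A3 gene (ENSGALG00000013804) passed for oil against untreated (3.23), and the sex intervals of SRD5A2 (0.43 to 2.58) and AKR1D1 (0.30 to 1.24) lay above 0 without passing over all genes.

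Genes whose log2(RPM + 1) followed AKR1D1 most closely over the 8 columns, among 4854 candidates with a mean of at least 20 RPM, were ARRDC2, ILK and KDELR3. Pearson's r was 0.983 for ARRDC2 (ENSGALG00000003527), an arrestin-domain protein, at 5.90 to 56.4 RPM. It was 0.977 for ILK (ENSGALG00000017335), the integrin-linked kinase, at 126 to 302 RPM, and 0.968 for KDELR3 (ENSGALG00000012251), a retrieval receptor of the secretory pathway, at 11.8 to 229 RPM. Closest to the main SRD5A3 gene were TP53BP2 (r = 0.964), VMP1 (r = 0.964) and GGCT (r = 0.956). These r values are descriptions of 8 columns that share sex and set, picked as the highest among all candidates.

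SULT1E1 (ENSGALG00000011812, chromosome 4), which in mammals attaches sulfate to oestrogens and so inactivates them, had 27 tags in all, 21 of them in 2 columns. Females had 25.4 RPM after oil (10.97 to 50.1, 8 tags), 0.434 untreated (1 tag) and none after tributyltin or methyltestosterone. Males had 25.6 RPM after tributyltin (13.6 to 43.8, 13 tags), 2.03 after oil (1 tag), 0.600 after methyltestosterone (4 tags) and none untreated. A substance that came with a high value in one sex thus came with 0 or 1 tag in the other. Tributyltin over oil was 12.6 (1.89 to 536) in males, and in females, with 0 tags after tributyltin and 8 after oil, the upper limit of the ratio was 0.474. In the untreated and methyltestosterone columns, which were deeper, the highest value was 0.600 RPM.

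Sulfation needs the donor PAPS, and glucuronidation needs an activated sugar. In the sulfation and conjugation list 18 of 27 measured genes were tested, and 3 were lower and 1 higher after oil, with a median of log2 -0.15 against -0.28 for all tested genes (6.36% called). In 5 of 15 alternative settings none of the list was called. PAPSS2 (ENSGALG00000003689), which makes PAPS, was at 119 and 38.4 RPM in untreated females and males and at 9.53 and 10.2 after oil (log2 -2.67, SE 0.56, limma adjusted p = 0.0213). It was at 38.6 and 7.87 after tributyltin and at 120 and 47.4 after methyltestosterone, in females and males. PAPSS1, which also makes PAPS, was at 89.5 and 107 RPM untreated and at 102 and 114 after oil, and was named after its values were seen. UGDH, which makes the glucuronic acid donor, fell by 1.62 (log2, limma adjusted p = 0.0375), and ARSH, a sulfatase, rose by 3.57 (log2, limma adjusted p = 0.0363). After tributyltin UGDH was at 48.9 and 86.6 RPM in females and males, against 235 and 139 untreated. ARSH was at 10.3 and 25.6 RPM after tributyltin, against 0.434 and 0.512 untreated. SULT1C, another sulfotransferase and the third to fall, was named after its values were seen (log2 -3.98, limma adjusted p = 0.0428). It was at 68.6 RPM in untreated females but at 2.56 in untreated males, and at 0 in both sexes after oil. After tributyltin it was at 2.57 and 0 RPM and after methyltestosterone at 8.56 and 0.600, in females and males. By sex 1 gene of this list was called, the organic anion transporter SLCO4A1, lower in females (log2 -4.75, limma adjusted p = 0.000940), as were 2.28% of all tested genes.

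Among the steroid reductases and oxidoreductases 24 of 32 measured genes were tested. None was called by sex in the main fit, and the list had no such call in 10 of 17 alternative settings. After oil 2 rose, against 2.77% of all tested genes called higher. These were the second SRD5A3 gene described above and AKR7A2 (ENSGALG00000004005), an aldehyde reductase. That SRD5A3 gene passed the filter through the oil and tributyltin columns, so its call and the share beside it are not free of this selection. It also lost the call in 9 of 14 alternative settings. AKR7A2 was at 44.5 and 54.8 RPM in oil females and males and at 3.04 and 5.12 untreated (log2 3.34, SE 0.69, limma adjusted p = 0.0201). It was at 56.6 and 29.5 RPM after tributyltin and at 12.7 and 3.45 after methyltestosterone, so that it too was high in the oil and tributyltin columns. Of 27 tested genes of dolichol and N-glycan assembly, the pathway in which SRD5A3 acts in mammals, none was called by sex. After oil the same SRD5A3 gene rose, under the same limit from the filter. STT3A (ENSGALG00000001005), a catalytic subunit of the oligosaccharyltransferase, fell by 1.60 (log2, limma adjusted p = 0.0254). STT3A was also low after tributyltin, at 56.6 and 49.2 RPM in females and males against 189 and 240 untreated. Of all tested genes 2.77% were called higher and 3.59% lower after oil. Of 9 tested genes of bile acid synthesis, the liver pathway that AKR1D1 serves, none was called in any comparison of the main fit. By sex the list had no call in 13 of 17 alternative settings.

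A list of genes that respond to glucocorticoids or mineralocorticoids, the hormones of NR3C1 and NR3C2, had 4 genes lower in oil than in untreated gonads. These were 4 of 20 tested, against 3.59% of all tested genes called lower; none rose, and the median was log2 -1.48 against -0.28 for all tested genes. PDK4 (ENSGALG00000009700), a kinase that limits glucose oxidation, was at 259 and 86.0 RPM in untreated females and males and at 22.2 and 4.06 after oil (log2 -3.79, SE 0.42, limma adjusted p = 0.00120). After tributyltin it was at 123 and 80.7 RPM and after methyltestosterone at 174 and 103, so the oil columns alone were low. TSC22D3 (ENSGALG00000027069), the glucocorticoid-induced leucine zipper protein, was at 187 and 277 RPM untreated and at 31.8 and 62.9 after oil (log2 -2.32, SE 0.33, limma adjusted p = 0.00434). It was also low after tributyltin, at 30.9 and 27.6 RPM, and was at 356 and 527 after methyltestosterone.

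ZBTB16, a zinc finger repressor, fell by 1.65 (log2, limma adjusted p = 0.0106). SESN1, a sestrin named after its values were seen, fell by 1.46 (log2, limma adjusted p = 0.0167). Over 15 alternative settings 1 to 8 genes of this list fell, 1 without the untreated female column and 2 without the untreated male column. The adrenal markers measured were CHGA, CHGB, PNMT, DBH, TH and SCG2, all of chromaffin cells. They summed to 1182 and 382 RPM in untreated females and males and to 407 and 62.9 after oil. Kidney markers summed to 1164 and 136 RPM untreated and to 378 and 24.4 after oil, and their median difference was log2 -2.27. Smooth muscle markers summed to 1501 and 458 RPM untreated and to 397 and 396 after oil, with a median difference of log2 -1.48. Among markers of gonad cells the median was -1.43 for testis and Sertoli, -1.09 for ovary and granulosa and 0.39 for germ cells. Gut epithelium markers summed to 1243 and 3.07 RPM in untreated females and males and to 25.4 and 0 after oil. The part of adrenal, kidney, smooth muscle, gut or gonad cell RNA in the values of this list was not tested.

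By sex 3 of the 20 tested genes of the same list were higher in females, against 3.67% of all tested genes called higher. PCK1 (ENSGALG00000007636), the gluconeogenic carboxykinase and also one of the kidney markers, had 88.9 to 497 RPM in the female columns against 2.03 to 15.0 in the male ones (log2 4.10, SE 0.44, limma adjusted p = 0.000940). ANXA1, an anti-inflammatory annexin, rose by 1.87 and PDK4 by 1.29 in females against males (log2, limma adjusted p = 0.0212 and 0.0309). The list's median by sex was 0.11 against 0.06 over all tested genes.

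The androgen response list, mostly taken from human prostate cells, had 1 call by sex and 1 for oil against untreated among 15 tested genes, where 5.96% and 6.36% of all tested genes were called. The list had no call by sex in 12 of 17 alternative settings and none for oil in 5 of 15. SLC45A3 (ENSGALG00000000703), a sugar transporter, was lower in females, with 15.4 to 63.4 RPM against 29.5 to 127 in the male columns (log2 -1.21, SE 0.28, limma adjusted p = 0.0314). NDRG1, a stress-responsive gene, fell by 1.54 after oil (log2, limma adjusted p = 0.0186). After methyltestosterone none of the 15 was called, and their median was log2 -0.16 against 0.10 for all tested genes. Both tested genes of the oviduct list rose in females: GREB1, an oestrogen receptor cofactor, by 4.603 and LTF, the gene of the transferrin family, by 1.62 (log2, limma adjusted p = 0.00816 and 0.0427). Of all tested genes 3.67% were called higher in females.

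Chaperones and coregulators of steroid receptors each had at most 1 call by sex and at most 1 for oil. Of all tested genes 5.96% were called by sex and 6.36% for oil. Of 15 tested chaperones, FKBP4 (ENSGALG00000014331), the immunophilin that helps steroid receptors bind hormone, was lower in females. Female columns had 324 to 489 RPM and male ones 546 to 918 (log2 -0.90, SE 0.19, limma adjusted p = 0.0190). All male columns thus lay above all female ones, as for 3.53% of all tested genes. DNAJB6, a co-chaperone, fell by 1.37 after oil (log2, limma adjusted p = 0.0225). After tributyltin DNAJB6 was at 121 and 66.9 RPM in females and males, against 182 and 158 untreated. Of 34 tested coregulators none was called by sex, and TRIM24, which binds nuclear receptors, fell by 1.74 after oil (log2, limma adjusted p = 0.0144). TRIM24 was also low after tributyltin, at 54.0 and 39.4 RPM in females and males against 142 and 93.7 untreated.

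Among 8 tested genes of androgen and oestrogen synthesis, 2 were higher and 2 lower in females. Of all tested genes 3.67% were called higher and 2.28% lower. CYP19A1 (ENSGALG00000013294), the aromatase that turns androgens into oestrogens, ranged from 28.7 to 118 RPM in the female columns and up to 11.1 in the male ones (log2 4.77, SE 0.73, limma adjusted p = 0.00395). HSD3B2 (ENSGALG00000014764), a dehydrogenase of the androgen pathway, had 454 to 734 RPM in the female columns and 817 to 1594 in the male ones (log2 -1.03, SE 0.16, limma adjusted p = 0.00500). LHCGR, the luteinising hormone receptor, rose by 2.02 in females (log2, limma adjusted p = 0.0293), and NR5A1, a regulator of steroid synthesis named after its values were seen, was lower by log2 -0.72 (limma adjusted p = 0.0455). After oil STAR, which brings cholesterol into mitochondria, rose by 3.88 and LHCGR by 2.57 (log2, limma adjusted p = 0.00813 and 0.0438). In females and males STAR was at 13.0 and 1.02 RPM untreated, 48.9 and 45.3 after tributyltin and 39.0 and 11.7 after methyltestosterone. LHCGR was at 10.9 and 2.56, 72.0 and 33.5, and 31.7 and 9.30 RPM in the same order. Of all tested genes 2.77% were called higher after oil. In the main fit none of the lists had a call for methyltestosterone against untreated or for tributyltin against oil. For the latter limma called 0 of all genes, with 991 at an unadjusted p under 0.05. The glucocorticoid and mineralocorticoid list had no call for tributyltin in 9 of 15 alternative settings.

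**Figure D5:**
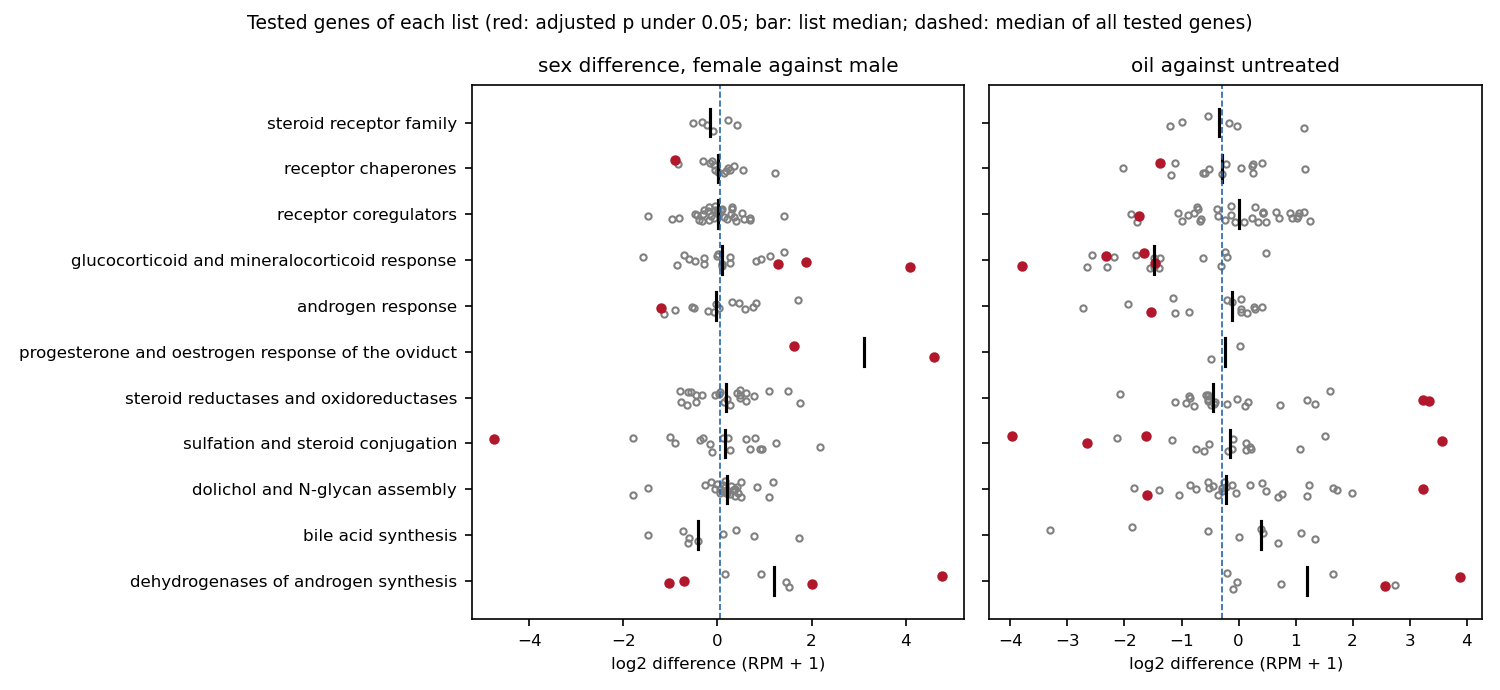
Fitted log2 differences on the log2(RPM + 1) scale (horizontal axis) of each tested gene of the 11 lists, by sex and for oil against untreated; red points had a limma adjusted p under 0.05, bars are list medians and the dashed line is the median of all tested genes. The list of glucocorticoid and mineralocorticoid response had its median at -1.48 for oil against untreated, with 4 genes called lower.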

How the data were processed

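Gene levels came from SuperSAGE of 16 libraries, each of RNA from 10 individuals. The authors' deposited table gives RPM per gene for 8 columns, 1 per sex and substance, with 0.05 standing for no tag. How left and right libraries were joined is not given in the sources used here. Novoalign and galGal4 are named per the submitters' processing notes. The deposited p-values of 12 column pairs have no stated test, and the authors' log2 ratios were not used. All values lay within 0.01 of a whole tag after scaling by the smallest step, which gave totals of 314810 to 6669049 tags per column.

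A filler of 0.05 was set to 0. The 9280 genes that reached 1 RPM in 4 or more columns were fitted with limma 3.58.1 in R 4.3.3 on log2(RPM + 1), with sex and substance as additive terms, 3 residual degrees of freedom and 7.39 prior ones. P-values were adjusted by the Benjamini-Hochberg method over all tested genes. They measure only the spread between columns that the additive terms leave. With 1 column per sex and substance, a substance response that differs between the sexes falls into that spread, which may also be technical. Each column pools individuals. The script was tested on simulated data. Count tests used edgeR 4.0.16 (quasi-likelihood) and DESeq2 1.42.0 on whole tags of 7 columns, without untreated females. Where they differ from limma, tool and missing column cannot be told apart. Ratios of 2 columns have exact conditional binomial intervals and levels exact Poisson intervals (Python 3.11.15), for counting error only. Other settings were another pseudocount, filter or scaling, each column left out, and the column sets alone.

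From each list and comparison, up to 3 called genes with the smallest p were named, and for each of the genes described with a mean of at least 20 RPM, the 3 with the highest Pearson r. The genes described and the lists were chosen with earlier results of these data known. Of the genes, 1744 had no symbol or a date in its place and stayed in the fit, and 110 symbols stood on more than 1 identifier. In the steroid receptor list 1 gene is not reported here.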

Additional observations from a re-analysis of the deposited data

Results flagged for a closer look

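SULT1E1 had 1 column far from the others in each sex. Among the 4 male columns tributyltin stood at 25.586 RPM, with a gap to the next of 0.921 of the whole range, and among the 4 female columns oil stood at 25.412 RPM, with a gap of 0.983. The 4 columns of a sex differ in substance. Chance marks about 1 in 20 groups of 4 normal values of equal spread, and its rate for few tags at unequal depths was not tested.

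For 3 genes a substance ran in opposite directions in the sexes, where at least 1 of the counting intervals left out 1 and each sex had more than 3 tags. These differences between the sexes were not tested. SULT1E1 after tributyltin was 12.6 times its oil value in males, while females had 0 tags after tributyltin and 8 after oil. AKR1D1 after tributyltin was 0.614 times its oil value in males and 1.23 times in females. The main SRD5A3 gene (ENSGALG00000027886) after methyltestosterone was 1.11 times its untreated value in males and 0.812 times in females.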

How the results depend on the processing

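In oil and tributyltin columns the exact interval of 0 tags reaches 7.26 to 11.7 RPM, and each group is 1 column, so a substance effect within 1 sex has no replicate check. No paired analysis was possible because the labels carry no replicate numbers and each group is 1 column. Where leaving out a column left a substance with 1, that column was assumed to vary like the others. Of 356 member values under alternative settings 316 kept direction and side of the threshold, 28 changed sign, 9 lost the threshold and 3 gained it. All 9 losses were of the second SRD5A3 gene (ENSGALG00000013804) for oil against untreated (limma, edgeR or DESeq2 adjusted p 0.0390 to 0.347 over the alternatives). Lists with a call by sex had none in 1 to 12 of 17 settings, and lists with a call for oil against untreated had none in 0 to 5 of 15. Lists without a call in the main fit had none in 10 to 17 of 17 settings by sex and in 14 or 15 of 15 for oil. They had none in 9 to 15 of 15 for tributyltin and in 14 or 15 of 15 for methyltestosterone. The causes were not tested.

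Counts of called genes were 553 by sex, 0 for tributyltin against oil, 32 for methyltestosterone against untreated and 590 for oil against untreated. With a pseudocount of 0.5 methyltestosterone gave 19, and with 5 it gave 60 and tributyltin 1. With no filter sex gave 193, oil 203 and methyltestosterone 0 in limma (1131 at an unadjusted p under 0.05). With a mean of at least 20 RPM methyltestosterone gave 80 and tributyltin 1. In edgeR tributyltin gave 4, methyltestosterone 94 and oil 355, and in DESeq2 sex gave 342, tributyltin 2, methyltestosterone 49 and oil 213. Sex gave 1014 in untreated and methyltestosterone columns alone and 0 in oil and tributyltin columns alone (limma, 1076 at an unadjusted p under 0.05). Leaving out 1 column gave 216 to 444 for sex, 0 to 49 for tributyltin (49 without oil males), 0 to 49 for methyltestosterone (0 without untreated females), and 53 to 1068 for oil (53 without untreated females, 75 without untreated males, 1068 without oil males). Higher and lower calls by sex were 341 and 212, against 251 and 281 in edgeR and 300 and 241 with median-of-ratios scaling. For oil they were 257 and 333, against 283 and 250 with that scaling and 151 and 62 in DESeq2.

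Values below are log2 differences that changed sign. NR3C1 for oil was 0.13 with a pseudocount of 5, and by sex -0.75 in untreated and methyltestosterone columns alone. The main SRD5A3 gene (ENSGALG00000027886) by sex was -0.038 with median-of-ratios scaling, -0.21 in edgeR, -0.15 in DESeq2 and -0.10 in oil and tributyltin columns alone, and for methyltestosterone 0.10 in both edgeR and DESeq2. The other SRD5A3 gene for methyltestosterone was 2.42 in edgeR and 1.57 in DESeq2. Leaving out 1 column gave -0.61 to 0.20 for AKR1D1 (tributyltin) and -0.61 to 0.32 for SRD5A2 (tributyltin). NR3C1 ranged from -0.66 to 0.68 by sex, -1.14 to 2.40 for tributyltin, -0.99 to 0.81 for methyltestosterone and -1.79 to 1.74 for oil. The main SRD5A3 gene ranged from -0.078 to 0.24 by sex, -0.70 to 0.082 for tributyltin and -0.32 to 0.17 for methyltestosterone, and the other from -1.08 to 0.56 for methyltestosterone.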
